A study of Mus musculus with 5 samples.

Results

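The genes described here make, break down, bind and respond to retinoic acid, a small lipid signal derived from vitamin A. They are the retinol dehydrogenase Rdh10, the retinal reductase Dhrs3, the retinal dehydrogenases Aldh1a1, Aldh1a2 and Aldh1a3, the retinoic acid hydroxylases Cyp26a1 and Cyp26b1, the binding protein Crabp2, and the nuclear receptors Rara and Rarb. They were chosen by gene symbol, as every probe set that the array annotation assigns to exactly 1 of these 10 symbols. This gave 13 of the 45037 probe sets tested, with 3 probe sets for Aldh1a3, 2 for Rdh10 and 1 for each of the other 8 genes. RNA came from dorsal pancreatic buds of C57BL/6J mouse embryos at E10.5, in mid-gestation, bred from Ptf1a heterozygous parents. Ptf1a null buds (3 arrays) were set against Ptf1a heterozygous buds (2 arrays), so both groups carried at least 1 mutant allele and no wild-type bud was among the arrays used here. The RNA on an array came from 3 pooled buds, freed of mesenchyme by mechanical dissection, after 2 rounds of linear amplification. The labels do not describe the mutant allele or say whether the pools came from separate litters. The p-values set a genotype difference against the spread among these pools only.

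Retinoic acid is made in 2 steps. Rdh10 oxidises retinol to retinal, which Dhrs3 can turn back into retinol, and the Aldh1a enzymes oxidise retinal to retinoic acid. The acid enters the nucleus with the help of Crabp2 and binds Rara, Rarb or the related receptor Rarg, which sit on DNA paired with an RXR protein. Cyp26 enzymes hydroxylate retinoic acid and so clear it. In the mouse embryo the mesoderm next to the foregut expresses Aldh1a2, and the dorsal pancreatic bud does not form properly in embryos that lack this enzyme.

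Rarb and Cyp26a1 are themselves textbook targets of the signal, switched on through a retinoic acid response element close to their start sites. Promoter sequences of RefSeq (build GRCm38.p6) were matched by gene ID for 7 of the 10 genes, in 13 windows of 250 bases before an annotated start, some of which overlap. They were searched on both strands for 2 copies of the receptor's element in the same orientation, separated by 5 bases. A copy could be AGGTCA, the form AGTTCA, the form GGGTCA or the form GGTTCA, in any combination. The repeat was found in 2 of the 7 genes, Rarb and Cyp26a1, against 28 of all 27025 genes. By window it was found in 2 of the 13, against 0.0883% of all 32851 windows of this length. Both genes were known beforehand to carry such an element, and the forms searched include the copies that make up both repeats. The counts therefore show how rare the pattern is and do not test enrichment among the members. The windows of these 2 genes are shown because they hold the element through which retinoic acid is known to act on its own receptor and its own breakdown enzyme. Each runs 5′ to 3′ on the strand of its gene and ends at the base before the start, and the capitals mark the repeat.
Rarb, chr14:16575477-16575726, minus strand: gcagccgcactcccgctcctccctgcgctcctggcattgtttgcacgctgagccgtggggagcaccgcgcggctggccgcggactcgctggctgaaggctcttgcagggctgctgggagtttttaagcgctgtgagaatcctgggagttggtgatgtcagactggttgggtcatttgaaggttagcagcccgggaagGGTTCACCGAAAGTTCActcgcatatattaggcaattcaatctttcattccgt
Cyp26a1, chr19:37697558-37697807, plus strand: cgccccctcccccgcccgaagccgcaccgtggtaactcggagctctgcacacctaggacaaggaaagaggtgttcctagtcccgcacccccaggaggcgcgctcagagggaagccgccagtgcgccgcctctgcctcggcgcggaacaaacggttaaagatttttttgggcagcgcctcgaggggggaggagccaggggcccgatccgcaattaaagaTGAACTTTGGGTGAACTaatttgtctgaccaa
In Rarb the repeat covers bases 53 to 37 before the start and lies on the strand of the gene. In Cyp26a1 it covers bases 32 to 16 before the start and lies on the opposite strand, where it reads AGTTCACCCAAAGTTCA. No repeat with a spacer of 1 or 2 bases was found in the 13 windows, against 0.164% and 0.174% of all windows. A match describes letters and does not show that a receptor binds there.

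Values below are log2 signals after quantile normalisation across the 5 arrays, unless they are called deposited signals. The background level of an array, the 95th percentile of its 27 bacterial control probe sets, lay between 3.03 and 3.29. Between 60.9% and 65.2% of probe sets lay above it on an array, and arrays of the same genotype correlated across probe sets at 0.849 to 0.854, against 0.838 to 0.862 for arrays of different genotypes. All 9 measured markers of bud epithelium were above background on every array. Of 18 measured mesenchyme markers, 13 to 17 were above it on null arrays and 12 on each heterozygote array, although mesenchyme had been dissected away. Ptf1a (probe set 1419424_at) had 5.21, 6.07 and 5.00 in nulls, against 7.10 and 7.33 in heterozygotes (log2 difference -1.79, limma adjusted p = 0.651). The labels do not tell whether the allele removes the sequence that this probe set detects, so it cannot check the genotypes.

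The comparison asks whether loss of Ptf1a changes the machinery of retinoic acid in the bud. No member changed between the genotypes by the test used. Limma with Benjamini-Hochberg adjustment over all 45037 probe sets called 0 of the 13 member probe sets at an adjusted p under 0.05, against 0% of all probe sets, and the lowest adjusted p of a member was 0.976. At an unadjusted p under 0.05 it found 0 of the 13, against 5.52% of all probe sets. A variant in which the expected spread follows signal level (trended and robust eBayes) also called 0 of the 13, against 0.0178% of all probe sets. At an unadjusted p under 0.05 that variant found 1 of the 13, Crabp2, against 4.93%. In 9 probe sets the mean was higher in nulls and in 4 it was lower. The median log2 difference over the 13 was 0.19, beside -0.0099 over all tested probe sets.

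The groups did not overlap at 3 of the 13 probe sets, against 20.0% of all probe sets, a share near the background. All null arrays lay above both heterozygote arrays at Aldh1a2 and Crabp2, against 9.90% of all probe sets, and below both at 1 probe set of Rdh10, against 10.1%. Of the 13 probe sets, 5 were above background on all 5 arrays and 1 was above it on none. The 95% confidence intervals of the 13 log2 differences were 1.83 to 8.08 wide, so changes of several fold in either direction were not detectable for many members.

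**Figure D1:**
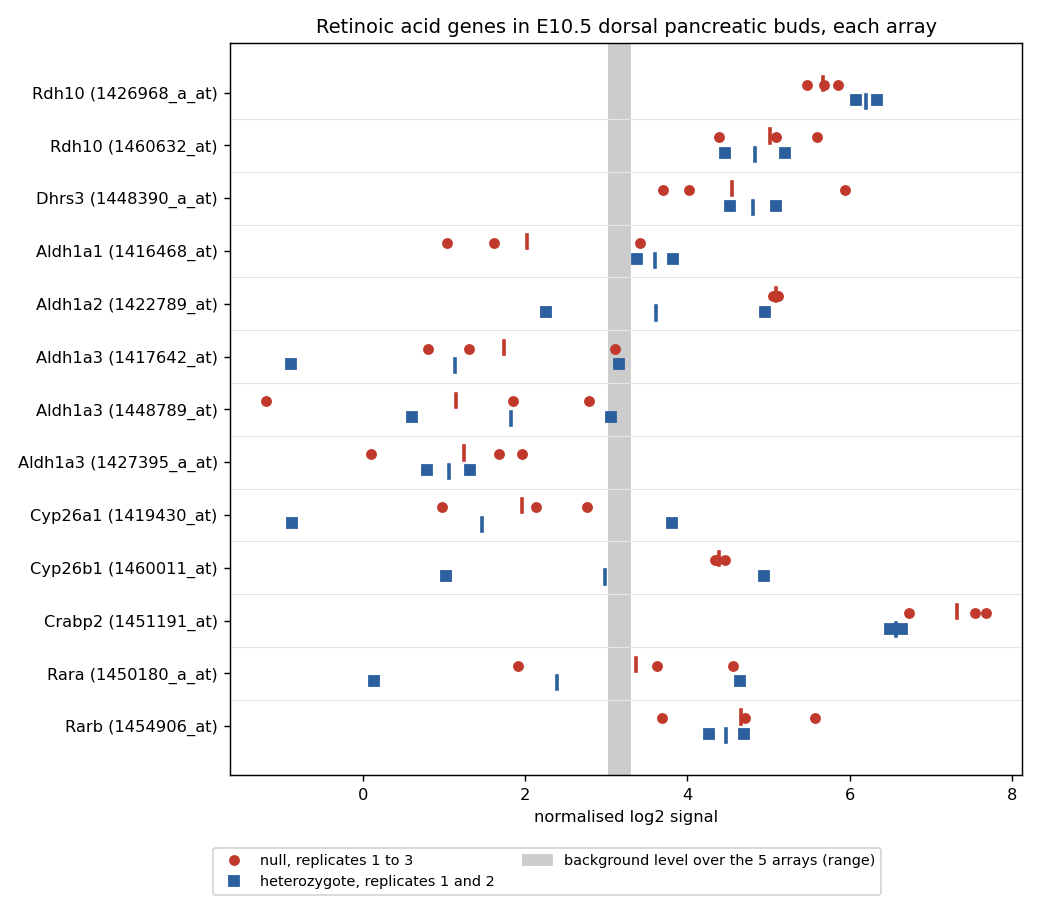
Normalised log2 signal of the 13 probe sets on each array (x axis), with null arrays as red circles above heterozygote arrays as blue squares, vertical ticks at the group means, and a grey band from 3.03 to 3.29 for the background level. The 2 heterozygote squares lie far apart at Aldh1a2, Aldh1a3 (1417642_at), Cyp26a1, Cyp26b1 and Rara, and close together at Crabp2.

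Rdh10, which starts the synthesis, was above background on every array at both of its probe sets. At 1426968_a_at, the brighter, its signal was 5.85, 5.68 and 5.48 in nulls, against 6.33 and 6.08 in heterozygotes. Both heterozygote arrays lay above every null array. The mean was 5.67 ± 0.19 (SD, n = 3) in nulls and 6.21 ± 0.18 (SD, n = 2) in heterozygotes, a log2 difference of -0.54 (SE 0.35, 95% confidence interval -1.45 to 0.38, limma adjusted p = 0.991). The difference kept its sign under all 12 alternative settings, but where groups do not overlap, leaving out 1 array cannot reverse it. At 1460632_at the signals were 4.38, 5.60 and 5.09 in nulls, against 4.47 and 5.20 in heterozygotes, and the groups overlapped (log2 difference 0.19, adjusted p = 0.999). The 2 probe sets of Rdh10 thus had differences of opposite sign. That at 1426968_a_at exceeded the range of the null arrays (0.37) and the gap between the heterozygote arrays (0.25), and neither passed the test.

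Dhrs3, which runs the same step backwards, had 4.02, 5.94 and 3.70 in nulls, against 5.09 and 4.53 in heterozygotes. Null replicate 2 was the highest of the 5 arrays and null replicates 1 and 3 the lowest. The log2 difference was -0.26 (SE 0.79, adjusted p = 0.999), and without null replicate 1, null replicate 3 or heterozygote replicate 1 it was 0.010, 0.17 or 0.024.

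Aldh1a1, a retinal dehydrogenase best known from adult tissues and the eye, had 3.41, 1.04 and 1.61 in nulls, against 3.82 and 3.38 in heterozygotes. It was above background on null replicate 1 and on both heterozygote arrays, and below it on the other 2 null arrays. Its highest null value lay just above its lower heterozygote value, so the groups overlapped. The mean was 2.02 ± 1.24 (SD, n = 3) in nulls and 3.60 ± 0.31 (SD, n = 2) in heterozygotes (log2 difference -1.58, SE 0.80, adjusted p = 0.976). This was the lowest mean difference among the members and their lowest unadjusted p in the untrended fit. Its sign was negative under all 12 alternatives, but the size was -0.38 when values under background were raised to that level.

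Aldh1a2, the main source of embryonic retinoic acid, was almost the same on all 3 null arrays, at 5.05, 5.11 and 5.11, against 4.95 and 2.26 in heterozygotes. In deposited signal these were 36.2, 28.1 and 35.5 in nulls, against 35.4 and 4.20 in heterozygotes. Heterozygote replicate 1 stood beside the nulls, and heterozygote replicate 2 was below background. The mean was 5.09 ± 0.04 (SD, n = 3) in nulls and 3.61 ± 1.91 (SD, n = 2) in heterozygotes. The log2 difference was 1.48 (SE 0.85, 95% confidence interval -0.71 to 3.68, adjusted p = 0.986 in the untrended and 0.976 in the trended fit). It rests on 1 array. Without heterozygote replicate 2 it was 0.14, and without heterozygote replicate 1 it was 2.83, with adjusted p = 0.378 in the untrended and 0.244 in the trended fit.

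Aldh1a2 is expressed around the bud by mesenchyme and by mesothelium, the sheet of cells that covers the gut, so markers of both are given beside it. Wt1, a zinc finger factor of the mesothelium, had 4.71, 4.18 and 4.63 in nulls, against 4.51 and -0.49 in heterozygotes. Like Aldh1a2, it was above background on every array except heterozygote replicate 2. Wt1 was the only 1 of the 7 mesothelium markers with a higher mean in nulls. The other 6 had lower means, and the median log2 difference over the 7 was -0.26. Of these mesothelium markers, 3, 3 and 4 were above background on null replicates 1 to 3, against 4 and 1 on heterozygote replicates 1 and 2. Their summed normalised signal was 253 to 302 in nulls, against 228 to 336 in heterozygotes, with heterozygote replicate 2 lowest of the 5 arrays. Most of that sum is Krt7, named here as the brightest of them. It had 7.66, 7.70 and 7.86 in nulls, against 7.95 and 7.70 in heterozygotes. Msln, which encodes mesothelin, was below background on every array, and Upk1b, a uroplakin, was above it only on null replicate 1. In the null arrays the 18 mesenchyme markers summed to 2205 to 2743, against 1783 to 2332 in the heterozygote arrays, again lowest on heterozygote replicate 2. A higher sum in nulls was not particular to mesenchyme. The 9 bud epithelium markers summed to 6037, 6329 and 4897 in nulls, against 3969 and 4882 in heterozygotes. Of these 9, however, 4 had higher and 5 lower means in nulls. Of the 18 mesenchyme markers, 15 had higher and 3 lower means in nulls. All null arrays lay above both heterozygote arrays at 6 of the 18, against 1786 of all 18193 named genes at their brightest probe sets. Osr1, Acta2 and Nkx3-2 are among the 6, with limma adjusted p of 0.832, 0.847 and 0.904. They were picked for the lowest p, which favours groups that do not overlap. Osr1 and Nkx3-2 were above background on neither heterozygote array, so their signal was at least 1.20-fold and at least 2.21-fold higher in nulls, and Acta2 had a log2 difference of 1.67. For bulk tissue, fewer cells of a type and less RNA per cell cannot be told apart. What part these cells have in the Aldh1a2 values was not tested.

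**Figure D2:**
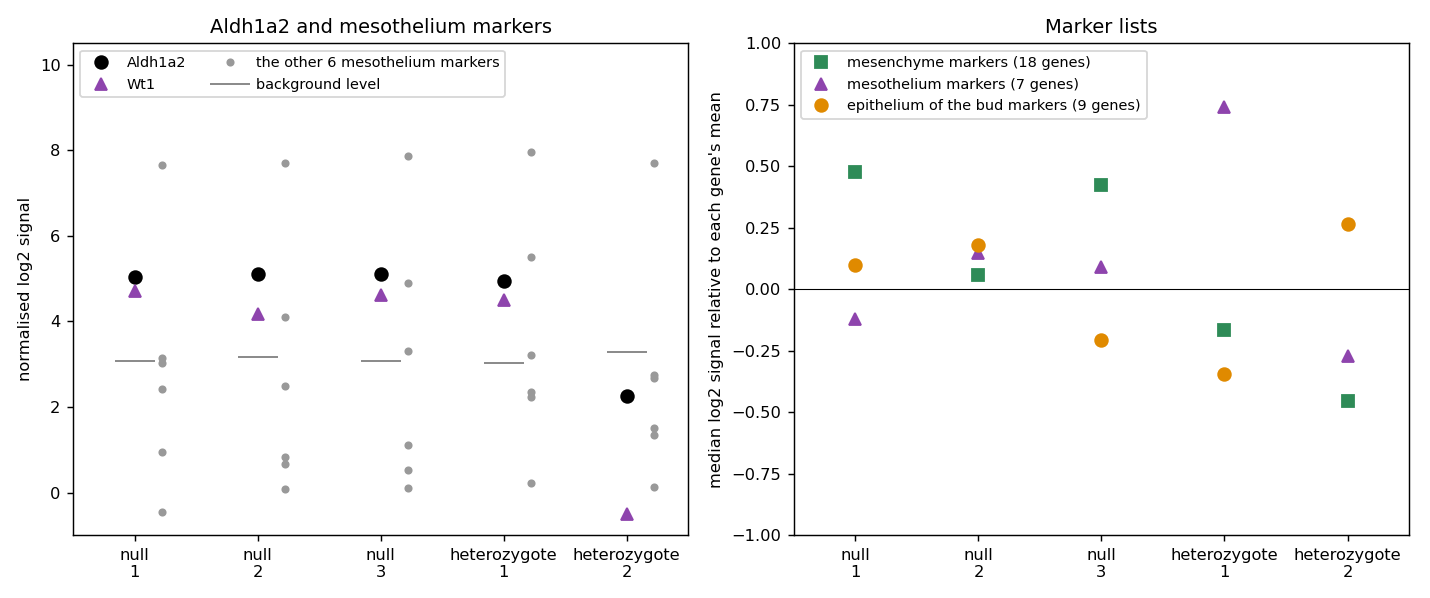
Left, normalised log2 signal of Aldh1a2 (black circles), Wt1 (purple triangles) and the other 6 mesothelium markers (grey dots) on each array, with the background level as a grey dash. Right, the median log2 signal of the mesenchyme, mesothelium and bud epithelium markers on each array, relative to the mean of each gene over the 5 arrays. Aldh1a2 and Wt1 lie above background on the 3 null arrays and on heterozygote replicate 1, and below it on heterozygote replicate 2, where the medians are -0.45 for mesenchyme, -0.27 for mesothelium and 0.27 for epithelium.

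Aldh1a3, the retinal dehydrogenase of the eye and nasal region, was at or near background at all 3 probe sets. Probe set 1417642_at had 3.11, 0.80 and 1.31 in nulls, against 3.15 and -0.88 in heterozygotes. It was above background on null replicate 1 and heterozygote replicate 1 alone. Probe set 1448789_at had 2.78, 1.85 and -1.19 in nulls, against 3.05 and 0.60 in heterozygotes, and was above background on heterozygote replicate 1 alone. Probe set 1427395_a_at was above it on no array. The fitted log2 differences were 0.61, -0.68 and 0.19 (adjusted p = 0.999 for each). The nulls were below background on every array at 1448789_at and 1427395_a_at, so these are not measured folds, and each of the 3 changed sign in at least 3 of the alternative settings.

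Both breakdown enzymes were higher on heterozygote replicate 2 than on replicate 1, the opposite order to Aldh1a2. Cyp26b1 had 4.33, 4.36 and 4.46 in nulls, against 1.02 and 4.94 in heterozygotes. In deposited signal it had 21.5, 17.6 and 22.9 in nulls, against 2.19 and 29.2 in heterozygotes. Heterozygote replicate 1 was below background and heterozygote replicate 2 was the highest array, so the groups overlapped. The mean was 4.39 ± 0.07 (SD, n = 3) in nulls and 2.98 ± 2.77 (SD, n = 2) in heterozygotes (log2 difference 1.41, SE 1.19, adjusted p = 0.992). Leaving out heterozygote replicate 1 gave -0.55, and leaving out heterozygote replicate 2 gave 3.37 (adjusted p = 0.554).

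Cyp26a1, whose promoter is shown above, had 2.13, 2.76 and 0.98 in nulls, against -0.87 and 3.81 in heterozygotes. It was above background on heterozygote replicate 2 alone. No fold is given, since its null arrays and heterozygote replicate 1 were all below background. The groups overlapped (adjusted p = 0.999). The fitted log2 difference of 0.49 is therefore not a measured fold, and it was -0.32 with values raised to background, -1.85 without heterozygote replicate 1 and 2.83 without heterozygote replicate 2.

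Crabp2, which carries retinoic acid to its receptors, was well above background on every array. Its signal was 7.69, 7.54 and 6.73 in nulls, against 6.49 and 6.64 in heterozygotes. In deposited signal it had 231.5, 141.2 and 108.4 in nulls, against 104.1 and 97.6 in heterozygotes. Every null array lay above both heterozygote arrays, with null replicate 3 only just above them. The mean was 7.32 ± 0.52 (SD, n = 3) in nulls and 6.57 ± 0.11 (SD, n = 2) in heterozygotes. The log2 difference was 0.75 (SE 0.45, 95% confidence interval -0.40 to 1.91, adjusted p = 0.991 in the untrended and 0.976 in the trended fit), a 1.68-fold higher mean. It lay between 0.57 and 1.05 with any 1 array left out.

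Rara, the receptor with the widest expression, had 4.57, 3.62 and 1.91 in nulls, against 4.65 and 0.14 in heterozygotes. It was above background on null replicates 1 and 2 and on heterozygote replicate 1. Heterozygote replicate 1 lay just above all 3 null arrays and heterozygote replicate 2 below them (log2 difference 0.97, SE 1.56, adjusted p = 0.999), and without heterozygote replicate 2 the difference was -1.28. Without heterozygote replicate 1 it was 3.23.

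Rarb, whose own promoter carries the response element, had 3.69, 4.71 and 5.57 in nulls, against 4.26 and 4.70 in heterozygotes. It was above background on every array, and both heterozygote values lay inside the null range. Its mean was 4.66 ± 0.94 (SD, n = 3) in nulls and 4.48 ± 0.30 (SD, n = 2) in heterozygotes, a log2 difference of 0.18 (SE 0.65, 95% confidence interval -1.50 to 1.86, adjusted p = 0.999). Among the other genes with the same repeat in their promoter window, 9 were measured, of which 4 had higher and 5 lower means in nulls. Their median log2 difference was -0.063, with 0 calls in either fit. Only 1 of the 9, Hbb-y, was above background on all arrays, and the median is its own difference.

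**Figure D3:**
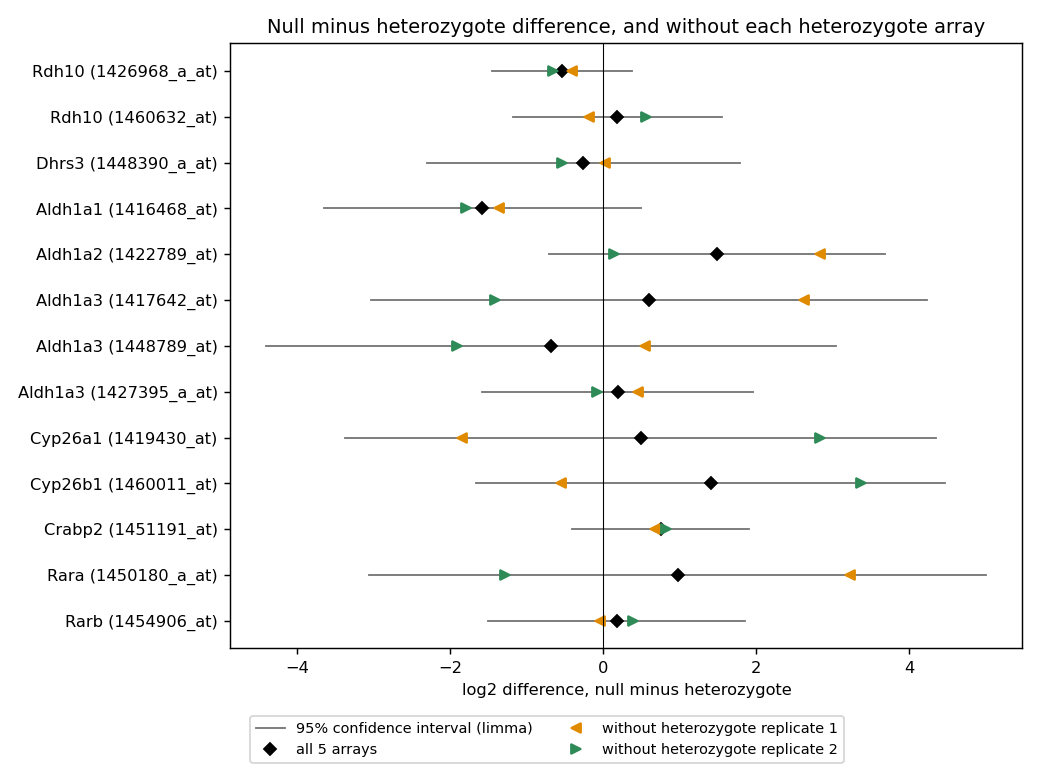
Log2 difference, null minus heterozygote, for each probe set (x axis): black diamonds are all 5 arrays with the limma 95% confidence interval as a grey line, and coloured triangles are the values without heterozygote replicate 1 (orange) or replicate 2 (green). Every interval includes 0, the values of Cyp26a1, Aldh1a3 (1448789_at) and Aldh1a3 (1427395_a_at) rest on null arrays below background, and the triangles of Aldh1a2 (2.83 and 0.14), Cyp26b1 (-0.55 and 3.37) and Rara (3.23 and -1.28) lie far apart.

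The 2 heterozygote pools lay far apart at several members. The gap between these arrays, as heterozygote replicate 1 minus replicate 2, was 2.70 for Aldh1a2, 4.52 for Rara and 4.04 for Aldh1a3 at 1417642_at. It was -3.92 for Cyp26b1 and -4.68 for Cyp26a1. In each of these the lower of the 2 arrays was below background, so the gap is one of normalised values and not a measured fold. The gap was also negative at the second probe set of Rdh10 (-0.74) and at Rarb (-0.43). The probe sets of like signal, with a mean within 0.5 of the member's on the log2 scale, had median absolute gaps of 0.58 for Aldh1a2, 0.92 for Rara, 1.64 for that probe set of Aldh1a3, 0.69 for Cyp26b1 and 1.53 for Cyp26a1. The gap at 1460632_at of Rdh10 was also above its median, 0.56. Crabp2, Rarb, Dhrs3, Aldh1a1 and the brighter Rdh10 probe set had gaps of 0.15 to 0.56 in size, each under that median. Counting all 13 member probe sets, 7 had a gap above the median of probe sets of like signal. As many probe sets lie above a median as below it, so this count does not set the members apart. Whether gaps as large as the 5 listed first are rare at like signal was not tested.

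The spread of the null arrays varied among these members. Aldh1a2 spanned 0.065 over the 3 null arrays and Cyp26b1 spanned 0.13, where probe sets of like signal had median ranges of 1.00 and 1.18. Rara spanned 2.65 and Aldh1a3 at 1448789_at spanned 3.98, against medians of 1.63 and 2.77. Dhrs3 and Rarb, whose heterozygote gaps were small, had null ranges of 2.24 and 1.88 against medians of 0.98 and 0.99. These are descriptions of 5 arrays, and genes within an array share its RNA pool.

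**Figure D4:**
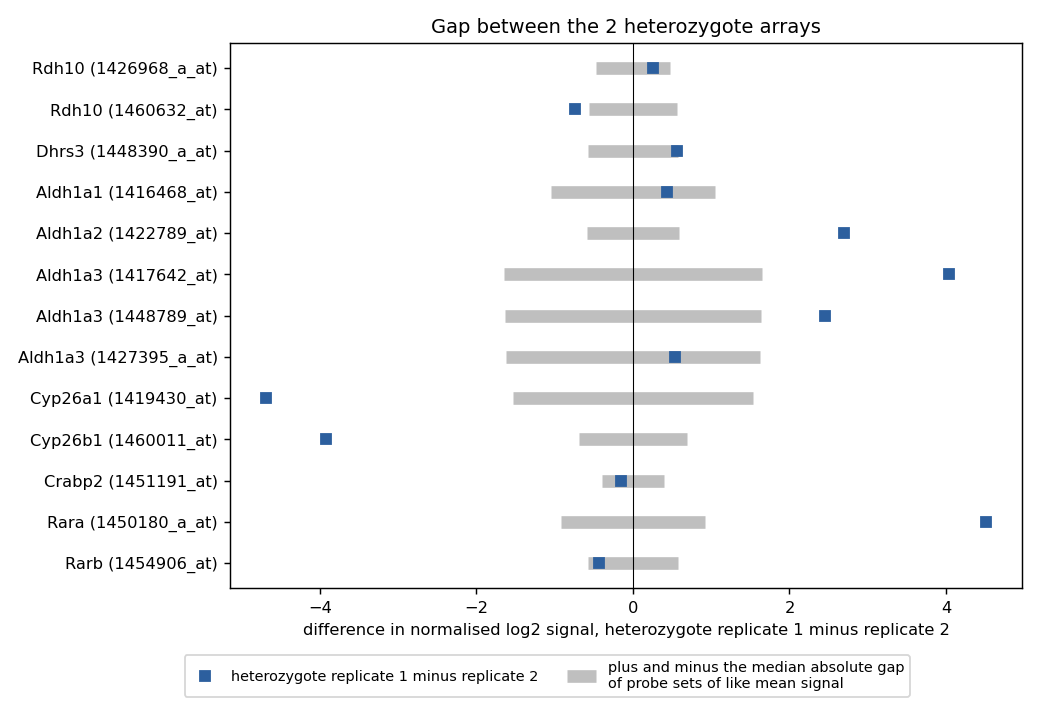
Difference in normalised log2 signal between heterozygote replicate 1 and replicate 2 for each probe set (blue squares), over grey bars that reach plus and minus the median absolute gap of probe sets of like mean signal. Squares lie outside the bars to the right at Aldh1a2 (2.70), Rara (4.52) and 2 probe sets of Aldh1a3, and to the left at Cyp26a1 (-4.68), Cyp26b1 (-3.92) and, narrowly, 1 probe set of Rdh10. Probe sets of like signal lie outside such a bar as often as inside it.

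The rest of the pathway was described by a list of 30 further genes, of which 24 were measured, each by its brightest probe set. In nulls 15 of the 24 had higher and 9 had lower means, and the median log2 difference was 0.14. None was called by either limma fit. In the untrended fit 1 of the 24, Lrat, had an unadjusted p under 0.05, against 813 of all 18193 named genes at their brightest probe sets. Lrat, which stores retinol as esters, had 1.32, 1.84 and 1.44 in nulls, against 2.54 and 3.11 in heterozygotes, all below background (adjusted p = 0.793). Probe sets other than the brightest, Rarg 1419416_a_at, Adh5 1443380_at and Rdh14 1453864_at, had an unadjusted p under 0.05 in both fits. They were picked after their values were seen, and none was called. In the trended fit 1 of the 24, Rbp4, had an unadjusted p under 0.05 at its brightest probe set, against 814 of the 18193 named genes. Rbp4, which carries retinol in the blood and was singled out after its values were seen, had 10.99, 10.70 and 10.55 in nulls, against 10.11 and 10.39 in heterozygotes (log2 difference 0.50, trended adjusted p = 0.976). Nrip1, a corepressor that binds liganded retinoic acid receptors, had 8.36, 8.04 and 7.99 in nulls, against 7.79 and 7.39 in heterozygotes. All null arrays lay above both heterozygote arrays there (log2 difference 0.54, adjusted p = 0.991), but its other 5 probe sets had overlapping groups and differences of -1.12 to 0.61.

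Rarg, the third retinoic acid receptor, is described by 2 of its probe sets. At 1419415_a_at it had 3.58, 4.98 and 5.30 in nulls, against 4.38 and 2.15 in heterozygotes (log2 difference 1.36, adjusted p = 0.991). At 1419416_a_at the nulls averaged 1.30 ± 0.50 (SD, n = 3), below background, and the heterozygotes 3.73 ± 0.45 (SD, n = 2), which places the nulls at least 1.54-fold lower (adjusted p = 0.441). The brighter of these, like Rara and Aldh1a2, was below background on heterozygote replicate 2, and Rara was so on null replicate 3 too. Heterozygote replicate 2 had the highest background level (3.29) and the fewest probe sets above it (60.9%) of the 5 arrays.

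Genes that retinoic acid is known to induce were described by a list of 20, of which 15 were measured and some are also in the pathway list. In nulls 10 had higher and 5 lower means, with a median log2 difference of 0.20. No gene of this list was called by either limma fit. At their brightest probe sets 0 of the 15 had an unadjusted p under 0.05 in either fit. Among all 18193 named genes, each by its brightest probe set, 813 did in the untrended and 814 in the trended fit. Rarg is also on this list, and its dimmer probe set 1419416_a_at had an unadjusted limma p of 0.0039 untrended and 0.047 trended. Stra8, a germ cell gene used as a reporter of retinoic acid response, had the lowest p among the brightest probe sets. Its values were 0.53, 0.31 and 2.85 in nulls, against 2.89 and 4.05 in heterozygotes. It was above background on heterozygote replicate 2 alone, so no fold is given (adjusted p = 0.935).

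**Figure D5:**
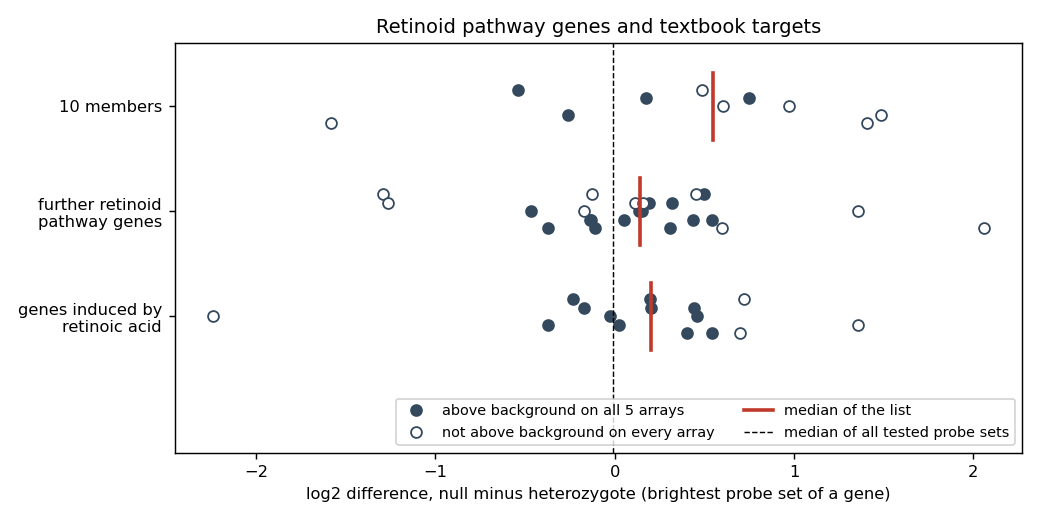
Log2 difference, null minus heterozygote, of the brightest probe set of each gene (x axis) among the 10 members, the further pathway genes and the genes induced by retinoic acid; filled circles were above background on all 5 arrays and open circles were not. Red lines mark list medians of 0.55, 0.14 and 0.20, beside the dashed line for all tested probe sets, and the differences farthest from 0 belong to genes that were not above background on every array.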

How the data were processed

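RNA of pooled dorsal pancreatic buds was measured on Affymetrix mouse expression arrays. The authors deposited linear signal intensity values for 45101 probe sets per array. The submitters' processing notes name GCOS and RMA, without role or version, and do not tell how background was corrected. Array medians of the deposited intensities were 13.7 to 17.5 and spanned 0.354 on the log2 scale. They were therefore log2 transformed with no offset and quantile normalised, and the 64 control probe sets were not tested. Dim probe sets scatter widely on this scale. Precision is limited by the number of arrays.

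The genotypes were tested in limma 3.58.1 (lmFit, then eBayes; two-sided tests, no covariate) in R 4.3.3, with Benjamini-Hochberg adjustment over 45037 probe sets at 0.05. The trended and robust form of eBayes was an alternative. Probe sets were named by the platform's annotation table. All 10 member symbols matched current symbols by gene ID. Every probe set of a member is named. Of the 2 retinoid gene lists and the mesenchyme and mesothelium markers, genes past the test are named, and otherwise the 3 genes with the lowest p at their brightest probe set. A fold is written as "at least" where a group lay at or below background on all its arrays. The fits were tested on simulated data. The members and lists were chosen with earlier results of these data known. Alternatives were other normalisations, an offset of 16, values raised to background, a filter requiring signal above background on 2 arrays, a replicate block, and leaving out each array. No correlation across the 5 arrays was computed.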

Additional observations from a re-analysis of the deposited data

How the results depend on the processing

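No member probe set was called under any of the 12 alternatives, or when the trended fit was run without each array in turn, a choice made after seeing the data. The lowest adjusted p of a member was 0.378 among the 12 (Aldh1a2 without heterozygote replicate 1) and 0.244 in the trended runs (the same array left out). Among all 45037 probe sets, 0 were called by the untrended limma fit (2484 had an unadjusted p under 0.05) and 8 by the trended fit. Leaving out single arrays, trended eBayes called between 0 (without null replicate 1) and 11 (without heterozygote replicate 1). The filter on low values kept 10 of the 13 member probe sets. Of 153 member values under the 12 alternatives, 127 kept the sign and 26 did not. The trended fit and the filter leave the difference itself unchanged, so they could not reverse a sign. The replicate block gave the same differences as leaving out null replicate 3. Rdh10 (1426968_a_at), Aldh1a1, Aldh1a2 and Crabp2 kept the sign throughout. At Rdh10 (1426968_a_at), Aldh1a2 and Crabp2 the groups do not overlap, so leaving out 1 array cannot reverse it. With each array left out in turn, the log2 difference ranged from -0.18 to 0.56 for Rdh10 (1460632_at), -0.95 to 0.17 for Dhrs3, -1.41 to 2.62 for Aldh1a3 at 1417642_at, -1.91 to 0.55 at 1448789_at and -0.17 to 0.76 at 1427395_a_at. It ranged from -1.85 to 2.83 for Cyp26a1, -0.55 to 3.37 for Cyp26b1, -1.28 to 3.23 for Rara and -0.28 to 0.66 for Rarb. With the offset of 16 it was -0.016 for Aldh1a3 (1417642_at) and -0.14 for Cyp26a1. With values raised to background it was -0.11 for Aldh1a3 (1417642_at), -0.060 for Aldh1a3 (1427395_a_at), -0.32 for Cyp26a1 and -0.22 for Rara. The cause of these changes of sign was not tested, apart from the fewer arrays. The fit without normalisation moved the median of all probe sets to -0.12 and left the members at 9 higher and 4 lower, as did median centring. With the replicate block, which leaves null replicate 3 without influence on the difference, the values were 0.17 for Dhrs3, 0.49 for Aldh1a3 (1448789_at) and -0.28 for Rarb, and 0 probe sets were called. The deviations of same-numbered arrays from their group means correlated at -0.017 and 0.0080. The deviations of the 2 heterozygote arrays are exact opposites of each other, so this check cannot tell whether the numbers pair the samples.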
